A study of Mus musculus with 10 samples.

Results

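The genes of this report encode the proteins of the cytosolic ribosome. They are the rows of the gene table whose symbol is Rps or Rpl followed by a number and at most 1 of the letters a, x, l or y and a further number, with a mean of at least 0.5 RPKM (a read number divided by transcript length and by the depth of the library, so that genes can be set side by side) over 10 libraries. Of 24475 genes in the table, 80 had such a symbol and 76 reached that mean, 32 of the small subunit (Rps) and 44 of the large subunit (Rpl). The 4 others were listed at or near 0. Rpl26 had a mean of 0.054 RPKM, Rpl39l 0.078 RPKM, Rpl3l 0.036 RPKM and Rpl10l 0.018 RPKM, while the lowest genes above the minimum, Rpl34 and Rpl30, had means of 5.02 and 5.08 RPKM. The choice used no difference between groups.

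The libraries were made from islets of C57BL/6 mice, the clusters of endocrine cells within the pancreas. One group of 5, numbered 1 to 5, was treated with REGN1193, which is directed against the glucagon receptor (GCGR) and blocks it. The other 5, numbered 6 to 10, were treated with an isotype control antibody. Islets were enriched on a Histopaque-1077 gradient, which leaves some exocrine and other cells. RNA was extracted with miRNeasy, and its polyA fraction was made into Nextera XT libraries, which do not record the strand. Dose, duration, age and sex are not in the labels, which also do not say that each library is a separate animal, so that p-values measure the spread between these libraries, which may be technical.

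A ribosome joins a small subunit, which reads the mRNA, to a large subunit, which forms peptide bonds. Each subunit holds ribosomal RNA and 1 copy of most of its proteins, so cells keep the protein genes at closely matched levels. Their mRNAs begin with a pyrimidine tract, the TOP motif (terminal oligopyrimidine), through which the kinase mTORC1 and the RNA-binding protein LARP1 control translation when nutrients and growth signals change. Endocrine cells of the islet make and secrete large amounts of peptide hormone.

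The start sites of the genes are shown because this tract is the feature the family is known for. The reference sequences are from RefSeq, build GRCm38.p6, and 56 of the 76 genes had an entry with a start site (67 promoters in all). A C at the annotated first base, followed by at least 4 more C or T bases, was found in 12 of those 67 promoters (17.9%), against 823 of all 32851 promoters (2.51%). Each window below holds 15 bases before the start and 15 from it, on the strand of the gene, and capitals mark the tract that begins at the annotated start.
Rps6 (chr4:86857353-86857382, minus strand): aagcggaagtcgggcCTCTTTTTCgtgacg
Rps10 (chr17:27635230-27635259, minus strand): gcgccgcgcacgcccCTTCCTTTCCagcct
Rps15a (chr7:118116133-118116162, minus strand): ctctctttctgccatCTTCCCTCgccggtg
Rps18 (chr17:33955651-33955680, minus strand): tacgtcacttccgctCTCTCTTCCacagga
Rps21 (chr2:180257364-180257393, plus strand): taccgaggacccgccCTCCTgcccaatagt
Rps27 (chr3:90213634-90213663, minus strand): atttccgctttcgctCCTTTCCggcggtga
Rpl14 (chr9:120571502-120571531, plus strand): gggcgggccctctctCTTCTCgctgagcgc
Rpl15 (chr14:18270972-18271001, minus strand): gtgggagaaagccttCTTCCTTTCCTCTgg
Rpl28 (chr7:4792950-4792979, plus strand): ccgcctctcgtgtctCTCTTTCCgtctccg
Rpl35 (chr2:39005117-39005146, minus strand): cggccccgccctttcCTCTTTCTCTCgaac
Rpl35a (chr16:33056467-33056496, plus strand): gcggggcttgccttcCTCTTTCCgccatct
Rpl38 (chr11:114668565-114668594, plus strand): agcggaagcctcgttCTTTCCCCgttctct

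The tracts ran from 5 bases in Rps21 to 13 in Rpl15. The 44 other members with a start site in the reference had none at the annotated base. For comparison, the starts of Rpl22l1 and Rpl7l1, paralogs of Rpl22 and Rpl7, and of Rpl41 are given below. They have no capitals because no tract begins at their annotated start. In Rpl22l1, however, a run of C and T bases begins just after the annotated start, within the wider rule that follows the windows.
Rpl22l1 (chr3:28805493-28805522, plus strand): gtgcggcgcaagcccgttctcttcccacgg
Rpl7l1 (chr17:46782642-46782671, minus strand): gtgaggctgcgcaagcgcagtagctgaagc
Rpl41 (chr10:128549154-128549183, minus strand): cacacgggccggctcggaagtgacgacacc
With the tract allowed to begin within 10 bases of the annotated start, 37 of 67 member promoters (55.2%) matched, against 30.7% of all promoters. In the 300 bases from 250 before to 50 after the start, on either strand, CCGGAAG, a core of the ETS family of factors, was found in 34.3% of member promoters and 8.86% of all promoters. AAGATGG, a core bound by YY1, was found in 17.9% of member promoters and 6.34% of all, and TATAAA in 8.96% of member promoters and 13.6% of all. These counts describe letters in the windows. They do not show binding.

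Ribosomal protein transcripts were among the most abundant in these islets. Of the 76 genes, 27 were among the 100 highest genes of the table and 71 among the 500 highest, and 65 had means between 200 and 1000 RPKM, with a median of 423 RPKM. The small subunit genes had a median of the means of 428 RPKM and the large subunit genes 420 RPKM. The highest were Rpl41, which encodes the shortest of the proteins, with a mean over the 10 libraries of 1267 RPKM, Rpl10 of the core near the peptidyl transferase centre with 913 RPKM, and Rpl27a with 838 RPKM. Rps24 and Rps3a1 of the small subunit followed with 796 and 708 RPKM. At the other end stood Rpl34 and Rpl30 near 5 RPKM, then Rpl7l1 with 22.5 RPKM, Rps4l with 27.9 RPKM and Rps27l with 103 RPKM.

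**Figure D1:**
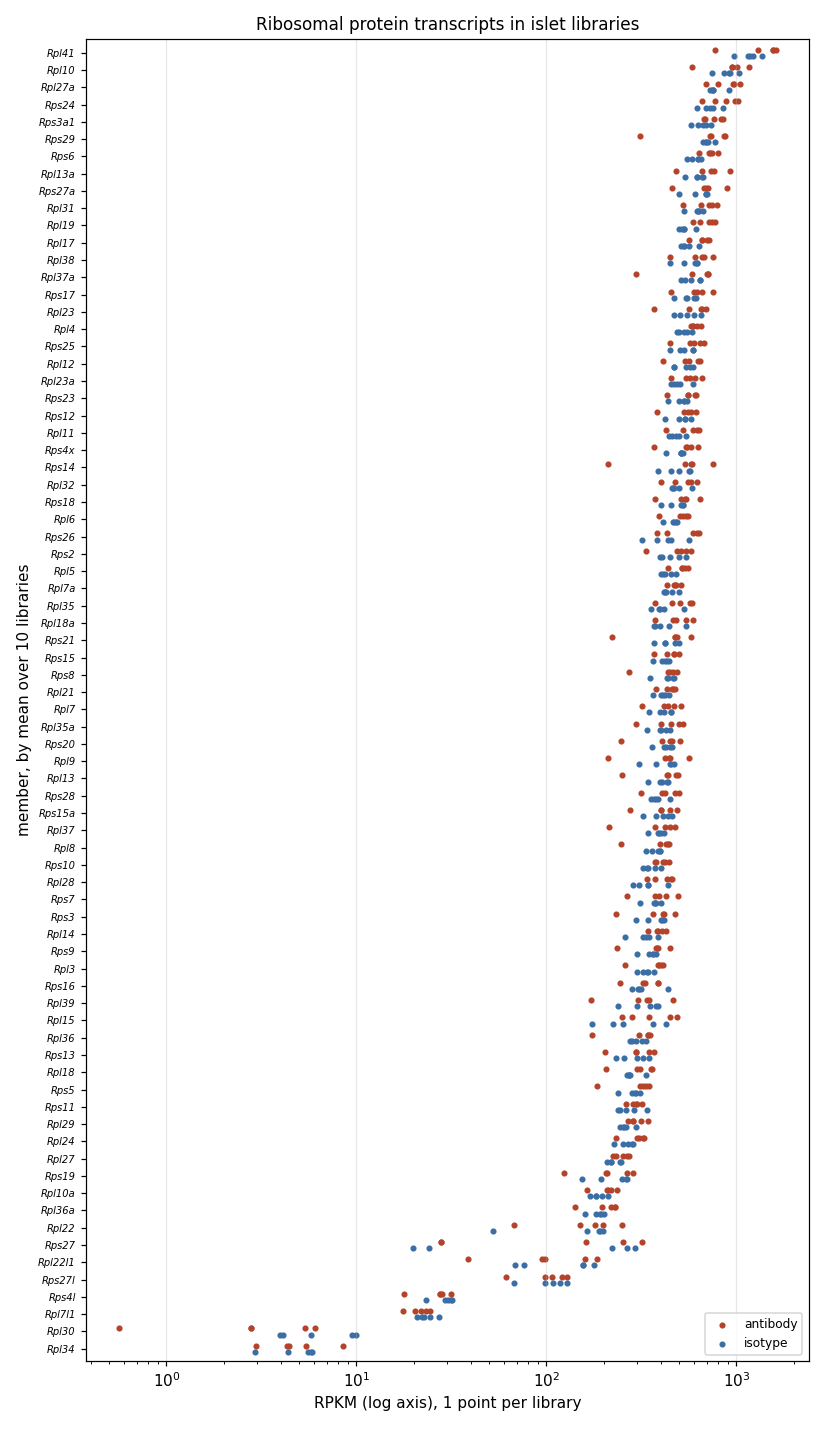
RPKM (log axis) of the 76 ribosomal protein genes, 1 point per library, ordered by mean, with antibody libraries above isotype libraries in each row. Most members lie between 200 and 1000 RPKM and the points of both groups overlap in every row.

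Near-identical copies limit how far a low or uneven level can be read. A script compared the coding sequence of 75 members with other mouse genes, and 70 had at least 1 other gene that matched at 95% identity over 90% of the coding sequence, with a median of 5 such genes and 56 for Rpl21. A near-identical gene with its own row in the gene table was found for 6 members. How reads shared by such copies were assigned is not given in the sources used here. Rpl34 had 4.41, 2.96, 8.53, 5.41 and 4.32 RPKM in antibody libraries 1 to 5, against 5.56, 5.87, 2.93, 4.37 and 5.78 RPKM in isotype libraries 6 to 10. Its processed copy Rpl34-ps1 had 211 to 474 RPKM in antibody libraries and 271 to 375 RPKM in isotype libraries. Members with such copies are therefore uncertain as single genes. Rpl26, which was under the minimum, had 6 near-identical genes, so its low level is also uncertain. Unlike for Rpl34, no copy of it with its own row in the gene table was found.

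Library depth, estimated from the steps of low RPKM values, ranged from 14.4 to 17.8 megareads in antibody libraries and 12.2 to 14.7 megareads in isotype libraries. Libraries stood apart in the members in 2 ways, across the groups: antibody replicate 5 was low in most of them, and antibody replicates 2 and 3 with isotype replicates 7 and 8 differed from the rest in a few. Of the alpha cell markers listed for this report, 8 of 12 rose in antibody libraries by limma at an adjusted p under 0.05, and their summed level was 55800 to 84900 RPKM, against 10800 to 18600 RPKM in isotype libraries. No beta cell marker of 12 passed, but 12 of 12 had a lower mean in antibody libraries, with a median log2 fold change of -0.44. Their summed level was 199000 to 357000 RPKM in antibody libraries and 299000 to 473000 RPKM in isotype libraries. Acinar markers summed to 4050 to 12900 RPKM in antibody libraries and 3120 to 17900 RPKM in isotype libraries. In such bulk samples, a change in how many cells of a type are present and a change in RNA per cell cannot be told apart.

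No ribosomal protein gene passed the test between antibody and isotype libraries. At an adjusted p under 0.05 (limma on log2 of RPKM plus 0.5, Benjamini-Hochberg over all 13450 genes tested), 0 of 76 members were called, where 0.409% of all genes tested were called (0.394% higher and 0.0149% lower). The smallest adjusted p of a member was 0.455, for Rpl19. At an unadjusted p under 0.05, 2 members were higher (Rpl19 and Rps6) and 1 was lower (Rpl30), where 2.84% of all genes tested were higher and 4.18% lower, 7.02% together. In no member did the 5 antibody values lie wholly above or below the 5 isotype values, which was the case in 1.99% of all genes tested (1.14% above and 0.84% below).

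Small differences leaned upward. On the log2 scale, 59 of 76 members (77.6%) had a higher mean in antibody libraries and 17 a lower one, against 33.5% of all genes tested with a higher mean. The median log2 fold change of the members was 0.092, against -0.066 over all genes tested, with a median standard error (SE) of a member of 0.156. By subunit, 23 of 32 small subunit genes had a higher mean, with a median of 0.062, and 36 of 44 large subunit genes, with a median of 0.118. In 75 of 76 members the log2 fold change was within 0.5 of 0. The members are not independent of each other, since they share libraries. Another fit left out antibody replicates 2 and 3 and isotype replicates 7 and 8 and kept antibody replicate 5. In it, 34 members had a higher mean and 42 a lower one, with a median of -0.02, against -0.09 over all genes tested in that fit. Because each group holds the same number of those 4 libraries, an indicator for them as a covariate cannot change a log2 fold change. With it, the counts were 59 and 17, as without it. Without antibody replicate 5, they were 72 and 4, with a median of 0.20 and with 14 members higher at an unadjusted p under 0.05, where 3.6% of all genes tested were. The median was lower when other single libraries were left out, at 0.04 for antibody replicate 4, 0.05 for isotype replicate 7 and 0.06 for antibody replicate 2. The count at an unadjusted p under 0.05 was 29 members higher with array weights, where 5.55% of all genes tested were, 9 with the median of each library set equal (4.34%) and 8 with trimmed mean scaling (3.95%). It was 0 with the median member of each library set equal, which by construction removes a shift that the members share. It was also 0 without antibody replicates 2 and 3 and isotype replicates 7 and 8, and 1 with a minimum mean of 5 RPKM. The fit without those 4 libraries has less power. It called 7 of 13455 genes tested at an adjusted p under 0.05 by limma, against 55 of 13450 in the main fit. None of these fits called a member at an adjusted p under 0.05.

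Other lists leaned up or down beside the members, with 0 genes called in each. Of 13 mitochondrially encoded genes, 13 had a higher mean in antibody libraries, with a median log2 fold change of 0.44. That median was 0.21 without antibody replicate 5 and 0.73 without antibody replicates 2 and 3 and isotype replicates 7 and 8. With quantile normalization, which gives each library the same set of values, 7 of 13 had a higher mean, with a median of 0.0. Of 6 delta and PP cell markers, 6 had a higher mean, with a median of 0.72. Of 14 acinar markers, 13 had a lower mean, with a median of -0.57. With the acinar level as a covariate, 48 members had a higher mean and 28 a lower one. Their median was 0.04, against -0.08 over all genes tested in that fit. The part of the other lists in the members' lean was not tested.

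**Figure D2:**
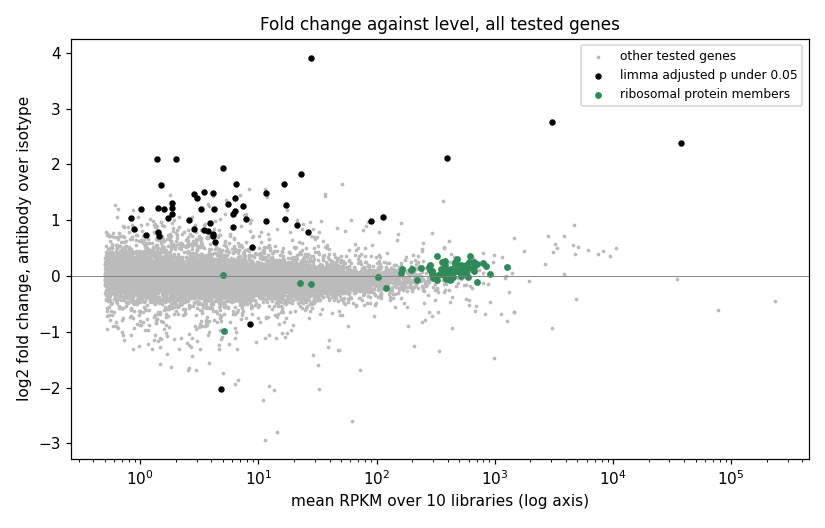
Log2 fold change of antibody over isotype against the mean RPKM (log axis) for 13450 tested genes, with ribosomal protein genes in green and genes with an adjusted p under 0.05 in black. Most ribosomal protein genes sit at high levels, and the log2 fold change of 75 of the 76 is within 0.5 of 0, the exception being Rpl30 at -0.99.

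In the small subunit, the member with the smallest p was Rps6, the protein that S6 kinase phosphorylates downstream of mTORC1 (chr4:86854099-86857367). Rps6 had 639, 745, 730, 715 and 797 RPKM in antibody libraries 1 to 5, against 625, 551, 655, 584 and 626 RPKM in isotype libraries 6 to 10. Antibody replicate 1 lay below isotype replicate 8, and the other 4 antibody libraries lay above every isotype library. The log2 fold change was 0.25 (SE 0.11), with an adjusted p of 0.704 by limma and a two-sided exact permutation p of 0.0159, where 0.00794 is the smallest that 252 assignments allow. It was 0.22 without antibody replicate 5, and also without antibody replicates 2 and 3 and isotype replicates 7 and 8. Rps27a, whose protein is made as a fusion with ubiquitin, averaged 686 ± 153 RPKM in antibody libraries and 635 ± 86.0 RPKM in isotype libraries (SD, n = 5 each), with a log2 fold change of 0.09 (SE 0.18). That sign turned to -0.07 without antibody replicates 2 and 3 and isotype replicates 7 and 8.

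Rps19, in which mutations cause Diamond-Blackfan anaemia in humans, averaged 218 ± 62.8 RPKM in antibody libraries and 225 ± 49.1 RPKM in isotype libraries (SD, n = 5 each), and its log2 fold change was -0.07 with an SE of 0.23. Rps29, a small subunit protein with a zinc-binding site, had 735, 866, 861, 728 and 311 RPKM in antibody libraries, against 693, 671, 775, 693 and 710 RPKM in isotype libraries. Antibody replicate 5 was the lowest of the 10 libraries, and antibody replicates 2 and 3 were the highest. Without antibody replicate 5, its log2 fold change of -0.10 (SE 0.25) became 0.17.

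In the large subunit, Rpl19, a protein at the exit of the peptide tunnel (chr11:98022003-98030493), had the smallest p of all members. It had 592, 767, 715, 645 and 748 RPKM in antibody libraries 1 to 5, against 533, 528, 612, 516 and 499 RPKM in isotype libraries 6 to 10. Only antibody replicate 1 fell under an isotype value, that of isotype replicate 8. The log2 fold change was 0.36 (SE 0.12), with an adjusted p of 0.455 by limma and an exact permutation p of 0.0159. Leaving out 1 library at a time gave log2 fold changes between 0.33 and 0.42, and leaving out antibody replicates 2 and 3 and isotype replicates 7 and 8 gave 0.35.

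Rpl5 and Rpl11, which bind the 5S ribosomal RNA and, when ribosome assembly fails, the p53 regulator MDM2, also had higher means in antibody libraries. Rpl5 averaged 513 ± 45.4 RPKM in antibody libraries and 434 ± 32.4 RPKM in isotype libraries (SD, n = 5 each), with a log2 fold change of 0.24 (SE 0.11, adjusted p 0.720 by limma). Rpl11 averaged 559 ± 88.2 RPKM in antibody libraries and 485 ± 39.3 RPKM in isotype libraries (SD, n = 5 each), with a log2 fold change of 0.19 (SE 0.14). Rpl17, another protein of the tunnel exit, averaged 659 ± 58.9 RPKM in antibody libraries and 555 ± 49.2 RPKM in isotype libraries (SD, n = 5 each), with an adjusted p of 0.722 by limma. Rpl14 averaged 388 ± 30.5 RPKM in antibody libraries and 329 ± 46.7 RPKM in isotype libraries (SD, n = 5 each), with an adjusted p of 0.766 by limma. None of these passed the threshold over all genes.

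Rpl30 had the largest difference below 0. It had 6.05, 2.78, 5.38, 2.78 and 0.565 RPKM in antibody libraries 1 to 5, against 9.96, 4.12, 5.77, 9.45 and 3.97 RPKM in isotype libraries 6 to 10. The groups overlap, and antibody replicate 5 is the lowest library. The log2 fold change was -0.99 (SE 0.45), with an adjusted p of 0.707 by limma and an exact permutation p of 0.0873. It was -0.57 without antibody replicate 5 and -1.45 without antibody replicates 2 and 3 and isotype replicates 7 and 8. Rpl30 had 12 near-identical genes, and its level lies far under the median of the members.

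The 12 members with a tract at the annotated start had mean levels from 162 to 667 RPKM. Of them, 10 had a higher mean in antibody libraries, with a median log2 fold change of 0.17, and of the 44 other members with a promoter entry 35 did, with a median of 0.09. The other 20 members had no promoter entry in the table. The difference between the sets was not tested.

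In most members the spread over libraries was smaller once the library's median member was subtracted. The median SD over the 10 libraries of a member's log2 level was 0.243. It was 0.254 over all genes tested and 0.274 over the 525 genes averaging above 100 RPKM. For the members it was 0.151 once the median member of each library was subtracted. That median is taken from the members themselves, so part of the narrowing is by construction. Whether other genes narrow alike was not tested. The SD became smaller in 54 of 76 members, and 51 members were under 0.2 after the subtraction. The steadiest were Rpl6 of the large subunit, with an SD of 0.058, Rps23, a protein of the decoding face, with 0.061, and Rpl31 with 0.063. The least steady were Rps27 with 1.75, Rpl30 with 0.889 and Rpl22 with 0.688.

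**Figure D3:**
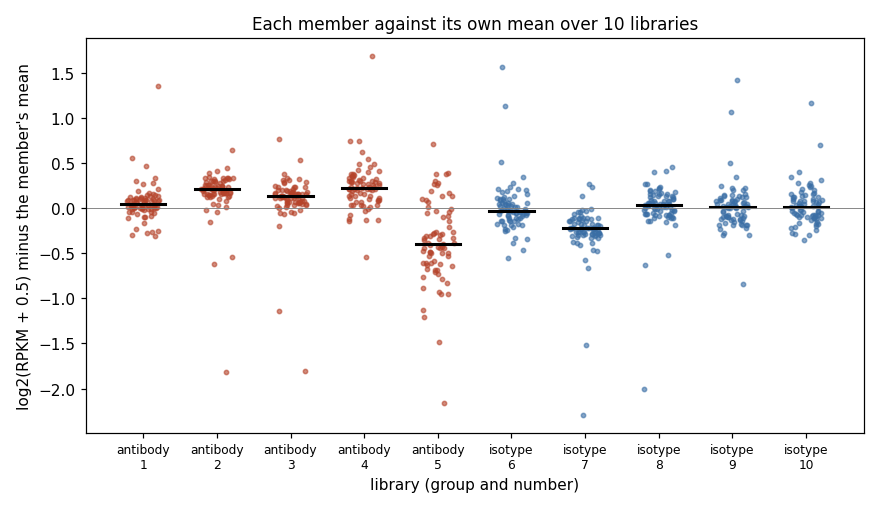
Log2 of RPKM plus 0.5 of each of 76 members minus that member's mean over 10 libraries, 1 point per member, with antibody libraries left of isotype libraries and a black bar at each library's median. Antibody replicate 5 has the lowest median, and isotype replicate 7 the next lowest median.

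Antibody replicate 5 stood apart from the other 9 libraries. It held the lowest value of 50 of the 76 members, and isotype replicate 7 that of 15, while antibody replicates 4 and 2 held the highest value of 33 and 29 members. The median member had 317 RPKM in antibody replicate 5, against 362 to 489 RPKM in the other libraries. The members did not follow evenly. Rps14 had 211 RPKM there and 389 to 754 RPKM in the other 9 libraries, while Rps24 had its highest level of all libraries there, 1021 RPKM, as had Rps6, Rpl35 with 585 RPKM and Rpl14 with 424 RPKM. In the same library the 13 mitochondrially encoded genes summed to 145000 RPKM, against 52200 to 76900 RPKM in the other antibody libraries and 43200 to 71600 RPKM in isotype libraries. The proteins of the mitochondrial ribosome, encoded in the nucleus, summed to 1230 RPKM there, the lowest of all libraries. The part of these values in the members' levels was not tested.

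As a share of all summed RPKM, the members took 4.56%, 4.70%, 4.27%, 4.73% and 3.64% in antibody libraries 1 to 5, against 3.68%, 3.36%, 3.79%, 4.13% and 4.55% in isotype libraries 6 to 10. The groups overlap, with means of 4.38 ± 0.453% in antibody libraries and 3.90 ± 0.456% in isotype libraries (SD, n = 5 each). Both insulin genes and the glucagon gene Gcg took 34.1% to 45.6% of summed RPKM in antibody libraries and 38.1% to 51.0% in isotype libraries. With those 3 genes left out of the total, the members took 7.49 ± 1.16% in antibody libraries and 7.24 ± 0.499% in isotype libraries.

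Rps27, a small subunit protein with a zinc finger (chr3:90212667-90213648), divided the libraries across both groups. It had 254, 27.8, 28.0, 319 and 162 RPKM in antibody libraries 1 to 5, against 294, 19.8, 24.2, 264 and 223 RPKM in isotype libraries 6 to 10. Antibody replicates 2 and 3 and isotype replicates 7 and 8 were low and the other 6 high, a 16.1-fold range. The log2 fold change between groups was 0.06 with an SE of 0.96 (adjusted p 0.996 by limma), and lay between -0.51 and 0.52 when 1 library was left out. Its near-identical retrogene copy Rps27rt had 441, 795, 752, 564 and 282 RPKM in antibody libraries, against 513, 582, 676, 462 and 392 RPKM in isotype libraries, and was highest in the 2 low Rps27 libraries of each group. The sum of both rows had a 1.99-fold range, from 444 RPKM in antibody replicate 5 to 884 RPKM in antibody replicate 4.

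The same 4 libraries stood apart in other members. Rpl15, a protein of the large subunit, had 251, 484, 449, 281 and 349 RPKM in antibody libraries 1 to 5, against 225, 364, 424, 173 and 253 RPKM in isotype libraries 6 to 10, so that these 4 libraries were the highest. Rps26, which lies at the mRNA exit of the small subunit, had 381, 639, 587, 432 and 617 RPKM in antibody libraries, against 320, 454, 564, 383 and 435 RPKM in isotype libraries. Within each group, Rps26 was highest in the same libraries, except that antibody replicate 5 lay between antibody replicates 2 and 3. Summed markers of delta and PP cells were 20500 and 20200 RPKM in antibody replicates 2 and 3, against 7810 to 12800 RPKM in the other antibody libraries, and 11200 and 11100 RPKM in isotype replicates 7 and 8, against 5220 to 7110 RPKM in the other isotype libraries. Outside the members, the erythrocyte marker Hba-a2, low in all libraries, had at most 0.0032 RPKM in the same 4 libraries and 0.785 to 8.01 RPKM in the others. Hba-a1 had 5.44 to 19.5 RPKM in the 4 libraries and 0.850 to 28.3 RPKM in the others. The part of these cells, or of how reads shared by copies were assigned, in the members' levels was not tested.

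**Figure D4:**
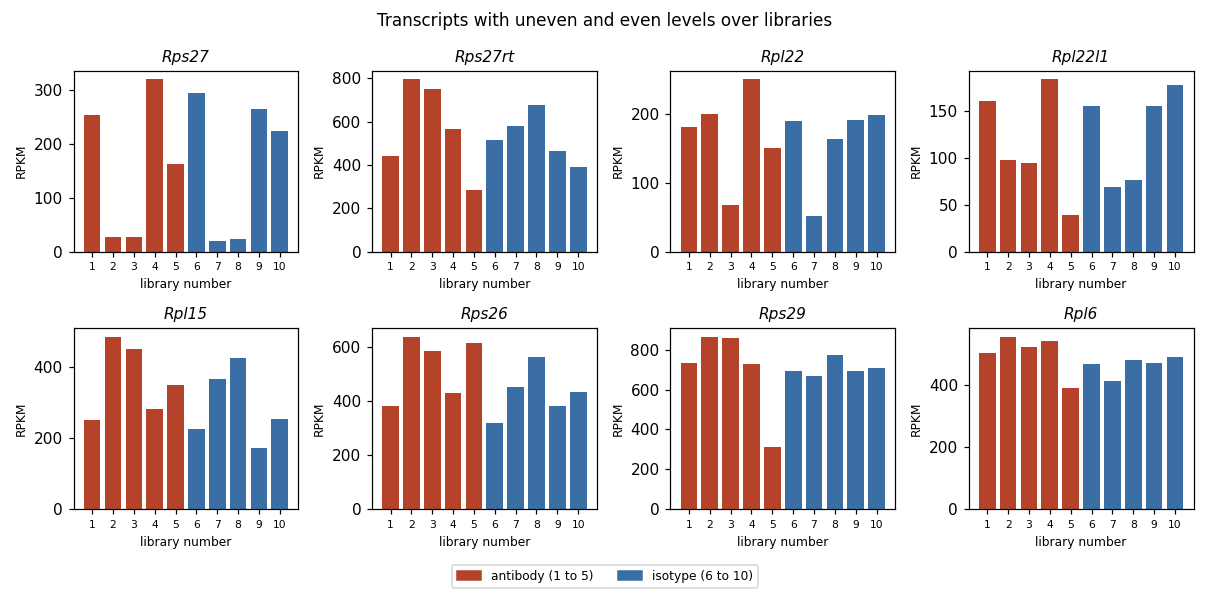
RPKM in each library (bars from 0, antibody libraries 1 to 5 left of isotype libraries 6 to 10) of 7 members and of the copy Rps27rt. Rps27 is at or under 28.0 RPKM in libraries 2, 3, 7 and 8 and at or over 162 RPKM in the others, while Rpl6 is nearly even and Rps29 is low in library 5.

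Of the paralog pairs listed, 5 had both genes above the minimum, and none differed between groups in the log2 level of the paralog minus that of its parent (two-sided exact permutation test, adjusted over the 5 pairs). In 3 further pairs the paralog, Rpl3l, Rpl10l or Rpl39l, was under the minimum. The pairs of Rpl26l1 with Rpl26 and of Rps3a2 with Rps3a1 were not analysed here. Rpl22 and Rpl22l1 encode alternative proteins of the large subunit. Rpl22 had 181, 200, 67.6, 250 and 151 RPKM in antibody libraries 1 to 5, against 190, 52.1, 163, 191 and 198 RPKM in isotype libraries 6 to 10. Rpl22l1 had 160, 97.8, 94.9, 184 and 38.7 RPKM in antibody libraries, against 155, 68.6, 76.0, 155 and 178 RPKM in isotype libraries. Rpl22 was low in antibody replicate 3 and isotype replicate 7 only, and Rpl22l1 was low in antibody replicates 2, 3 and 5 and isotype replicates 7 and 8. The log2 level of Rpl22l1 minus Rpl22 was -0.62 ± 0.92 in antibody libraries and -0.29 ± 0.53 in isotype libraries (SD, n = 5 each; exact permutation p 0.508, adjusted 0.804), a difference of -0.33 that lay between -0.61 and 0.00 when 1 library was left out.

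The smallest p among the pairs was for Rps4l and Rps4x, the X-linked small subunit gene. The log2 level of Rps4l minus Rps4x was -4.30 ± 0.02 in antibody libraries and -4.07 ± 0.25 in isotype libraries (SD, n = 5 each), an exact permutation p of 0.0635 and an adjusted one of 0.318. Rpl7l1 lay below Rpl7 by a like distance, with -4.28 ± 0.22 in antibody libraries and -4.11 ± 0.12 in isotype libraries (SD, n = 5 each), and an exact permutation p of 0.198. Rpl36al lay above Rpl36a, with 0.85 ± 0.38 in antibody libraries and 0.95 ± 0.19 in isotype libraries, and Rps27l minus Rps27 varied with the 4 libraries above, from -1.39 to 1.92 in antibody libraries and -1.57 to 2.13 in isotype libraries.

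Genes that make, use or control ribosomes were compared as lists in the same fit, and 0 genes were called in each of them, where 0.409% of all genes tested were called. Of 8 cytosolic ribosomal proteins outside the symbol pattern, such as Rplp1 of the stalk, 8 had a higher mean in antibody libraries, with a median log2 fold change of 0.10, and 3 of 8 without antibody replicates 2 and 3 and isotype replicates 7 and 8. That median was 0.23 once antibody replicate 5 was left out, 0.06 for antibody replicate 1 and 0.05 for either antibody replicate 2 or isotype replicate 7, and the acinar covariate gave 5 of 8 with a median of 0.02. Of 13 other genes listed for mRNAs of the TOP class, most of them translation factors, 12 had a higher mean, with a median of 0.16. It was 0.11 without antibody replicate 4 and 0.22 without antibody replicate 1 or 5, and 10 of 13 had a higher mean without isotype replicate 7. Without antibody replicates 2 and 3 and isotype replicates 7 and 8, 13 of 13 did, with a median of 0.11. In that list, Eif4b, an initiation factor that assists the helicase eIF4A, averaged 86.4 ± 9.36 RPKM in antibody libraries and 72.6 ± 2.54 RPKM in isotype libraries (SD, n = 5 each), with a log2 fold change of 0.24 (SE 0.10) and an adjusted p of 0.649 by limma. Pabpc1, which binds polyA tails, averaged 229 ± 45.8 RPKM in antibody libraries and 177 ± 37.0 RPKM in isotype libraries (SD, n = 5 each), with an adjusted p of 0.752 by limma.

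Most factors that assemble ribosomes had a lower mean in antibody libraries. Of 40 ribosome biogenesis genes, 3 had a higher mean in antibody libraries and 37 a lower one, with a median log2 fold change of -0.12, where 33.5% of all genes tested had a higher mean and the median was -0.066. Leaving out 1 library gave 13 higher with a median of -0.07 for isotype replicate 10, 11 for antibody replicate 4, 7 for antibody replicate 5, 6 for antibody replicate 3, and 5 for antibody replicates 1 and 2 and isotype replicate 8. With isotype replicate 6 left out, the median was -0.19. Dkc1, which modifies ribosomal RNA, averaged 7.49 ± 0.879 RPKM in antibody libraries and 9.04 ± 0.869 RPKM in isotype libraries (SD, n = 5 each), with an adjusted p of 0.650 by limma. Of 19 regulators of ribosomal protein synthesis, 5 had a higher mean, with a median of -0.05, close to that of all genes tested. That median was -0.11 without antibody replicate 5 or isotype replicate 6 and -0.09 without antibody replicate 3, and 8 of 19 had a higher mean without antibody replicate 4 or isotype replicate 10. Larp1 averaged 26.7 ± 2.08 RPKM in antibody libraries and 31.1 ± 4.18 RPKM in isotype libraries (SD, n = 5 each; adjusted p 0.766 by limma). Of 77 mitochondrial ribosomal proteins, 17 had a higher mean, with a median of -0.09. It was 33 with a median of -0.02 without antibody replicate 5, and 9 without isotype replicate 6. The directions of these lists also depend on scaling. With the median of each library set equal, the median of all genes tested moved to 0.01. Then 15 of 40 biogenesis genes, 11 of 19 regulators and 36 of 77 mitochondrial ribosomal proteins had a higher mean. Of the 76 members 71 did, and of the 13 genes listed for the TOP class 13 did.

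**Figure D5:**
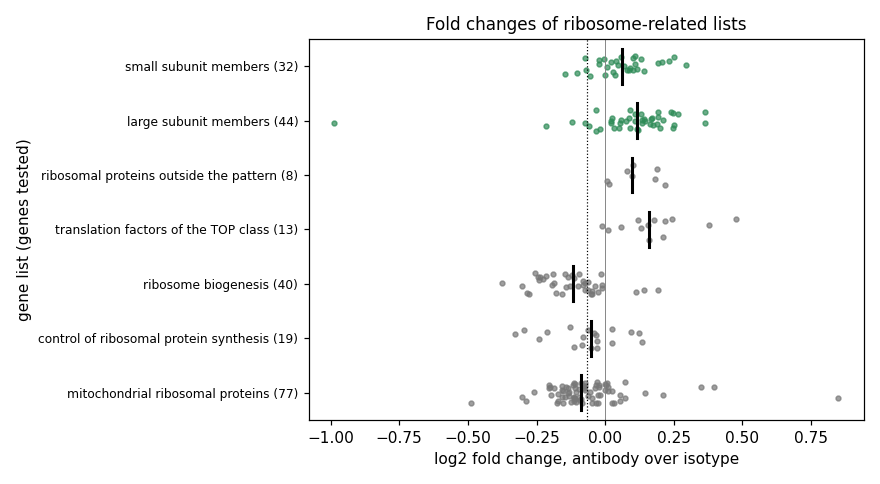
Log2 fold change of antibody over isotype for each tested gene of 7 lists, with a black bar at each list's median and a dotted line at the median of all genes tested, -0.066. Both sets of members in green and the TOP-class list, labelled translation factors, have medians above 0. The biogenesis, control and mitochondrial ribosome lists have medians below 0.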

How the data were processed

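The authors deposited 1 table of RPKM values for 10 islet libraries, with gene symbols and identifiers. Per the submitters' processing notes, GRCm38, mm10, CASAVA 1.8.2 and FastQC were used, with no role stated. For the aligner, the counting program and its treatment of shared reads, the sources used here give nothing. Values entered as log2(RPKM + 0.5), which understates changes of low genes, and a mean of 0.5 RPKM or more over the libraries was required. The fit was limma 3.58.1 in R 4.3.3 (variance trend), with no covariates and Benjamini-Hochberg adjustment over all 13450 genes. At 0.5 RPKM, a library held about 6.12 to 8.91 reads per kilobase. Depth was estimated from 15614 genes. Single values were compared by exact permutation over 252 assignments. Copies were found with BLAST 2.17.0 against GENCODE M21. Python 3.11.15 was used for the rest. On simulated data, limma recovered 35.5% of 1.5-fold and 75.7% of 2-fold changes, and 5.22% of its calls were false. The changed genes were drawn from all genes tested, and each value was drawn independently. Library effects shared between genes were not simulated, so these shares are not the power for the members.

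Named genes followed a rule: the smallest p in each direction, the highest and lowest levels, the most and least steady members, paralog pairs, genes with the smallest p in each list, and Rps6, Rps27a, Rps19, Rpl5 and Rpl11 for their roles. Rpl15, Rps14, Rps24, Rps26, Rpl35 and the copies were named after their values were seen. The members and lists were chosen with earlier results of these data known. Motifs other than the tract were added with the files in hand. Alternatives were other pseudocounts, filters, scalings, variance settings, an acinar covariate, leaving out libraries, and an indicator for 4 libraries that stood apart.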

Additional observations from a re-analysis of the deposited data

Results flagged for a closer look

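In the 62 groups of 5 libraries examined, 4 held 1 library whose gap to the nearest other exceeded Dixon's 95% limit for 5 values, where chance flags about 1 group in 20. Rps29 had 311 RPKM in antibody replicate 5, below the other antibody libraries. Rpl27a had 917 RPKM in isotype replicate 8, above the other isotype libraries. Rpl22 had 52.1 RPKM and Rps4x had 424 RPKM in isotype replicate 7, both below the other isotype libraries.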

How the results depend on the processing

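In each of 24 alternatives, 0 members were called at an adjusted p under 0.05 by limma, with a smallest adjusted p of 0.0804 under array weights. The median log2 fold change of the members lay between -0.02, without antibody replicates 2 and 3 and isotype replicates 7 and 8, a choice added after the data were seen, and 0.22 under array weights, and leaving out 1 library gave 0.041 to 0.199. Over all genes tested, the median was -0.09 without those 4 libraries and -0.06 under array weights. Leaving out 1 library put Rps27 between -0.51 and 0.52, Rpl22 between -0.25 and 0.42, Rps27a between -0.01 and 0.23, Rpl22l1 between -0.43 and 0.13, Rps29 between -0.20 and 0.17, and Rps19 between -0.20 and 0.11. It put the Rps27l to Rps27 difference between -0.56 and 0.44, the Rpl36al to Rpl36a difference between -0.21 and 0.05, the Rpl22l1 to Rpl22 difference between -0.61 and 0.00, and the Rpl7l1 to Rpl7 difference between -0.23 and -0.09. Under array weights, Rpl22l1 turned to 0.12, Rps29 to 0.19, Rps19 to 0.13 and Rps27 to -0.20, and Rps19 turned to 0.00 under median centring. Without the 4 libraries named above, Rps27a turned to -0.07, Rps27 to -0.13 and Rpl22 to -0.02. The cause of these changes was not tested. No paired analysis was possible because the groups share no replicate number (1 to 5 against 6 to 10). Depth limits the precision of Rpl30 and Rpl34, and shared reads limit members with near-identical copies.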
